A study of Mus musculus x Rattus norvegicus with 2 samples.

Results

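General capillary cells are an endothelial type of the lung's alveolar capillaries, and the cells described here are those of mouse origin in a pair of mouse-rat chimeric lungs at E20.5. They were picked by a gate on RNA. A cell counted as endothelial mouse if at least 90% of its unique molecular identifiers (UMIs, counted RNA molecules) were from mouse genes, if it had 4 or more UMIs of Cdh5, Pecam1 and Cldn5 together, and if it had no more than 2 of Epcam. Among these, a general capillary cell had 4 or more UMIs of Gpihbp1, Aplnr and Plvap together, fewer than 4 of the aerocyte genes Car4 and Ednrb, fewer than 3 of the arterial genes Gja4, Gja5 and Dkk2, and fewer than 5 of the venous gene Vwf. The gate took 608 of 7414 mouse cells in the control library and 1142 of 8854 in the mutant library, 1750 cells of 22047 deposited cell barcodes. The values of these genes chose the cells, so they are given as descriptions.

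The control library was chimeric lung from a wild-type rat host, and the mutant library was mouse lung from an Nkx2-1-/- rat host, with C57BL/6 mouse and SD rat cells. The deletion is in the host rat and not in the mouse cells described here. Both lungs were dissociated to single cells and run with the 10x 3' v3 chemistry, 1 library per group. The labels do not say how many embryos went into each library. With 1 library per group there was no replicate and no test, so each difference below compares those libraries and its 95% interval covers counting error only.

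In the lung, general capillary cells line the alveolar capillaries together with aerocytes, the large thin cells of gas exchange, and act as progenitors of both. Gpihbp1 carries lipoprotein lipase to the capillary surface, Aplnr is the apelin receptor, and Plvap forms the diaphragms of fenestrae and caveolae. Kit, the stem cell factor receptor, also marks this type, while Apln, the ligand of Aplnr, marks aerocytes.

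General capillary cells were 47.4% of mouse endothelial cells in control (608 of 1283, 44.6 to 50.2%) and 55.5% in mutant (1142 of 2059, 53.3 to 57.6%; exact Clopper-Pearson intervals). A gate on raw UMIs reads depth, and after thinning each endothelial cell to 2000 UMIs the shares were 13.4% and 21.6%. With an endothelial sum of at least 8 in place of 4 they were 57.3% and 57.8%, so the difference between libraries depended on this limit. The median cell had 7628 UMIs in control (quartiles 4770 and 15600) and 8329 in mutant (6473 and 10919). In control, 91 of the cells (15.0%) had more than 20000 UMIs and held 44.4% of the type's UMIs, against 36 cells (3.15%) and 8.17% in mutant. The leading lists and the division shares are therefore also given without these deep cells.

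The 3 gate genes contributed differently in the 2 libraries. In CPM (UMIs per 1000000 mouse UMIs of the summed cells), Gpihbp1 (mm10 chr15:75596628-75599481, plus strand) was at 211 in control (200 to 221) and 843 in mutant (826 to 861). Aplnr (chr2:85136225-85139923, plus strand) was at 387 in control (373 to 402) and 160 in mutant (152 to 167). Plvap (chr8:71497765-71511752, minus strand) was at 414 and 345. Gpihbp1 thus gave 20.8% of the gate UMIs in control and 62.6% in mutant, and Aplnr 38.3% and 11.8%. In control 371 cells (61.0%) had all 3 genes, and in mutant 601 (52.6%). Just inside the threshold, at a gate sum of 4, lay 82 control and 77 mutant cells, and just outside it, at a sum of 3, lay 85 and 74 endothelial cells that met the other limits.

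**Figure D1:**
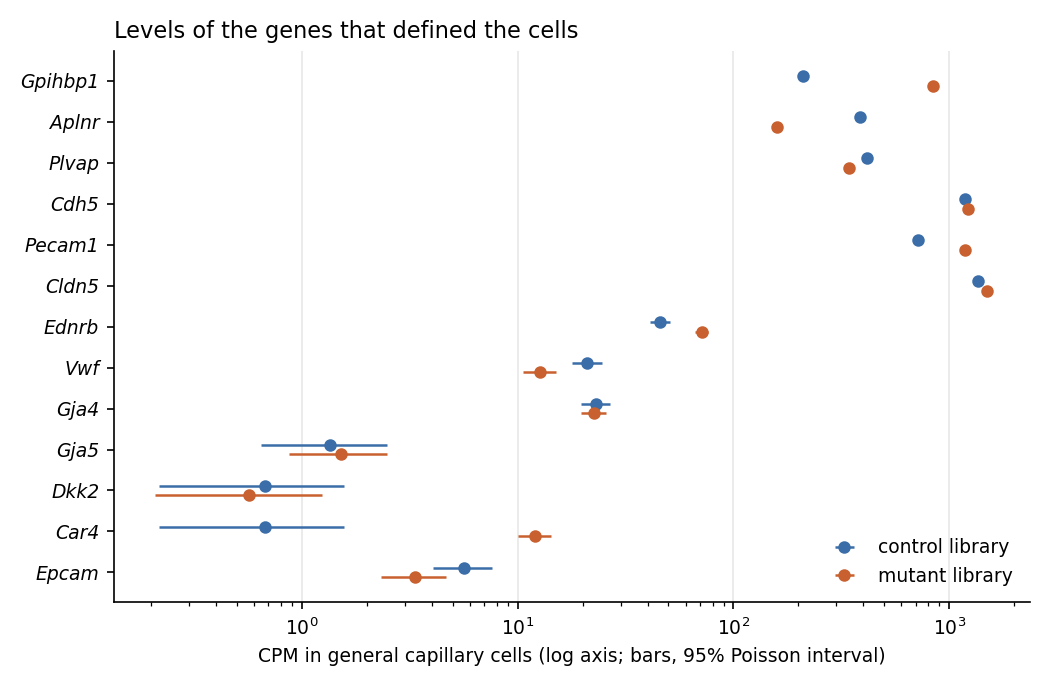
Levels of the gate genes in general capillary cells of the control (blue) and mutant (orange) library, as CPM on a log axis, with bars for the 95% Poisson interval of the summed count. Gpihbp1 was higher in mutant (843 against 211 CPM) and Aplnr lower (160 against 387), while Cdh5 was close (1182 and 1218).

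Endothelial genes that the gate did not use were present in both libraries. Tie1, an orphan receptor of endothelium, was at 292 CPM in control and 277 in mutant, and Emcn, endomucin, at 569 and 1029. All 13 members of a pan-endothelial list were detected, with a summed level of 6653 CPM in control and 7265 in mutant against 221 and 202 in mouse mesenchymal cells (at least 10 UMIs of Col1a1, Col1a2 and Col3a1 and fewer than 4 of the gate's endothelial genes, a limit that by itself keeps endothelial RNA low there). Kit was at 320 and 281 CPM, and Cd93 at 571 and 625. Sema3c, also listed for the type, was at 1.08 CPM in control and 18.1 in mutant, below its mesenchymal level of 29.1 and 86.5.

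RNA of other cell types was present. All 10 epithelial markers had UMIs in both libraries, summing to 271 CPM in control and 865 in mutant, against 35300 and 86707 in epithelial cells. The 10 mesenchymal markers summed to 1006 and 952 CPM, against 11819 and 16911 in mesenchymal cells. Immune markers summed to 34.3 and 77.4 CPM. The 5 red cell markers, haemoglobin genes and Alas2, summed to 6042 and 4633 CPM, against pan-endothelial sums of 6653 and 7265. The part of this RNA in the differences below was not tested. A Scrublet doublet score of 0.2 or more was given to 29 control (4.77%) and 52 mutant cells (4.55%), which stayed in. The libraries shared 47 barcodes, 2 of them general capillary in both.

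General capillary cells were first compared with the other endothelial cells of their own library (675 in control, 917 in mutant), on a log2 ratio with 10 CPM added to both sides and a threshold of 2-fold. In control no gene of 9016 was 2-fold higher (0% called) and 38 were 2-fold lower (0.421%). In mutant 8 genes of 9461 were higher (0.0846%) and 238 lower (2.52%). Gate genes are not counted. The comparison group in control was mixed: it held 404 cells in no gate, with a median of 2730 UMIs, and 208 in more than 1 gate, with a median of 25985.

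The genes that leaned to general capillary cells in both libraries were Kit, Glp1r, Gpr182, Col15a1, Samsn1, Neil3, Dnah8, Trp53i11, Nup210 and St8sia4. Glp1r, the receptor of glucagon-like peptide 1, was at 144 CPM in general capillary and 90.3 in other endothelial cells in control, and at 133 and 58.8 in mutant. Its log2 ratio was 0.62 in control and 1.06 in mutant. Kit had ratios of 0.58 and 0.89. The difference between the libraries' ratios was not tested.

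The genes farthest on the lower side included arterial and matrix genes. Cxcl12, the chemokine that arterial endothelium makes in developing lung, was at 20.1 CPM against 535 in control and 50.8 against 472 in mutant, a log2 ratio of -4.18 and -2.99. It was on the list written for general capillary cells, and it lay on the other side in both libraries. Over that list, 4 of 11 measured genes were higher and 7 lower in control, 2 of them past 2-fold lower (median -0.07). In mutant 7 of 12 were higher and 5 lower, 3 of them past 2-fold lower (median 0.23). No gene of the list was past 2-fold higher, and over all genes 0.421% and 2.52% were called lower. Fbln5, a fibulin of elastic fibres, had ratios of -2.21 and -2.33, and Mecom, a transcription factor, -1.45 and -1.40. Stmn2, Tmem100, Tagln, Fbn1, Ltbp4, Atp13a3 and H19 completed the 10 lowest. Tmem100 was also on the general capillary list.

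The arterial gate (53 control and 41 mutant cells) gave the clearest contrast. Of 10 arterial genes, 10 were lower in general capillary cells in control, 9 of them past 2-fold, with a median log2 of -2.27 against -0.02 over all genes. In mutant 8 of 10 were lower, all 8 past 2-fold, with a median of -1.95 against 0.07. Over all genes 4.29% and 4.73% were called lower. Efnb2, the arterial ephrin, was at 58.2 CPM against 341 in control and 122 against 580 in mutant. Bmx, a kinase of arterial endothelium, was at 0.135 against 119 CPM and at 1.05 against 172. Cxcl12 reached 3619 and 4364 CPM in the arterial gate. Ptprb, the VE-PTP phosphatase that restrains Tie2 signalling, was lower in general capillary than in arterial cells, with 307 against 746 CPM in control and 668 against 2268 in mutant. The general capillary list was split against arterial cells. Of its measured genes, 4 of 11 were higher in control and 7 of 12 in mutant (medians -0.30 and 0.18).

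General capillary cells held more division RNA than arterial cells. All 14 G2/M genes were higher in both libraries, 12 of them past 2-fold in control and 14 in mutant, with median log2 values of 1.32 and 2.76. Over all genes 5.54% and 8.27% were called higher. Mki67, the proliferation antigen, was at 393 CPM against 106 in control and 236 against 3.12 in mutant. The 41 mutant arterial cells held 320599 mouse UMIs in all, so the value of 3.12 CPM rests on very few UMIs.

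Apart from the ranking of named genes and the processing checks at the end, aerocytes were compared in the mutant library alone. The aerocyte gate held 177 mutant cells and 9 control cells, and the control cells went against the gate's name. Their 13 pan-endothelial genes summed to 1074 CPM against 6653 in general capillary cells, while immune markers summed to 2218 CPM and mesenchymal markers to 5242. The 177 mutant cells had pan-endothelial genes at 7238 CPM, with immune markers at 13.9 CPM. Their mesenchymal markers summed to 5411 CPM against 952 in general capillary cells, and all 10 were lower in general capillary cells, 8 past 2-fold. The part of that RNA in the ratios to aerocytes was not tested.

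In mutant, general capillary and aerocyte cells differed in their marker genes and also in mesenchymal markers, whose median log2 was -3.00. By the naming rule, the 10 genes farthest on the aerocyte side were Htra1, Pdgfra, Hhip, Nnat, Zfp536, Tagln, Myh11, Mgp, Wnt5a and Robo2. That rule used the smaller ratio of the 2 libraries, so the 9 control cells of the gate entered it. It was not a ranking of the mutant library by itself. In mutant, of 9667 genes, 292 were at least 2-fold higher in general capillary cells (3.02%) and 534 lower (5.52%). Of 12 genes of the general capillary list outside the gate, 9 were higher, 6 past 2-fold (median 0.89, against 0.01 over all genes). Of 12 aerocyte genes, 10 were lower, 7 past 2-fold (median -1.74). Kit was at 281 CPM against 32.5 in aerocytes, a log2 ratio of 2.78, and Ptprb at 668 against 77.5, a ratio of 2.95. Tek, the Tie2 receptor, was at 255 against 35.8, and the orphan adhesion receptor Adgrl4 at 440 against 68.9. Rgcc, a cell cycle regulator of endothelium, was at 694 against 160. The transcription factor Tbx2 was at 38.5 against 419 CPM, the membrane protein Emp2 at 67.6 against 546, and Prx, periaxin, at 66.8 against 349. Kdr, the main VEGF receptor, was lower by less than 2-fold, at 559 against 953.

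Some genes of lipid handling also lay on the general capillary side against mutant aerocytes. Fabp5, a fatty acid binding protein, was at 217 CPM against 27.8 in mutant aerocytes, and Cd36, which takes up fatty acids, at 657 against 262. Of 11 measured fatty acid uptake genes, 7 were higher, 4 of them past 2-fold, and 4 lower, with a median of 0.77. Against other endothelial cells the list was near 0, with medians of 0.02 in control and 0.05 in mutant. There 7 of 12 measured genes were higher in control and 6 of 11 in mutant, with 0 past 2-fold. Against mutant aerocytes all 14 G2/M genes were higher, 8 past 2-fold (median 1.13), and 10 of 10 measured S phase genes, 9 past 2-fold (median 1.26).

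The mutant and control libraries were then compared within general capillary cells. The headers of the deposited matrices name Cell Ranger 6.0.1 for control and 7.0.1 for mutant, and genes with long introns were higher in mutant. Genes with at most 2 kb of intron had a median log2 of -0.41 and those with more than 200 kb one of 1.33. Genes with at most 10 kb of intron held 59.1% of control and 50.7% of mutant UMIs. Each log2 difference is therefore given after subtracting the median of its intron-length class, here called the relative log2. A second reference is the same gene's unadjusted difference in the mesenchymal cells of the same files, 3546 in control and 3750 in mutant. It was also subtracted for genes under 10 CPM in mesenchymal cells, where the 10 CPM added shrinks the mesenchymal difference.

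Of 9511 genes, 438 were at least 2-fold higher in mutant on the relative scale (4.61%) and 196 lower (2.06%). Without the intron reference the shares were 10% and 3.1%. After subtracting the mesenchymal difference they were 3.36% and 1.96%. Mesenchymal cells themselves had 10.7% of genes higher and 5.8% lower without the intron reference and 6.31% and 4.16% with it. Other endothelial cells had 5.97% and 3.17% with it, and epithelial cells (3 or more UMIs of Epcam) 9.13% and 6.26%.

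**Figure D2:**
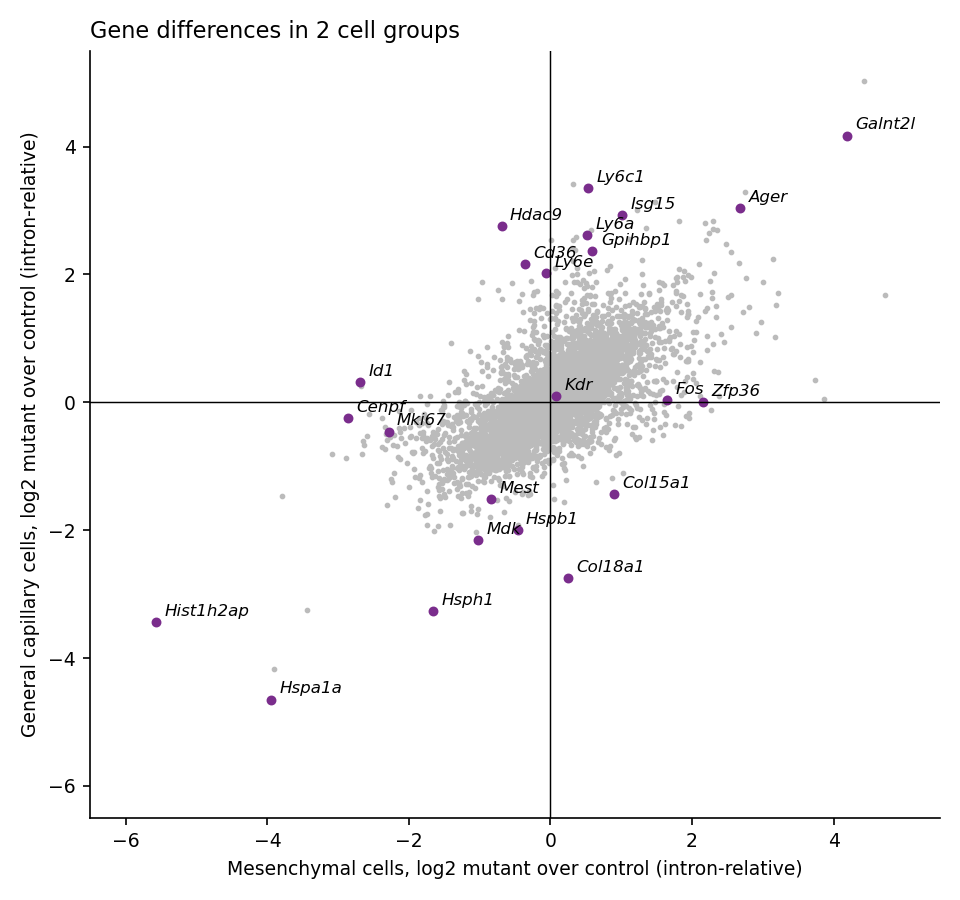
Relative log2 difference of mutant over control for 9521 genes at 10 CPM or more in general capillary cells (vertical axis) against the same in mesenchymal cells (horizontal axis), with 23 genes labelled in purple. Ly6c1 lay at 3.35 and Col18a1 at -2.75 on the vertical axis, both within 1 of 0 on the horizontal axis, and Hspa1a lay low on both.

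Interferon-response genes and the Ly6 family were the leading group on the higher side. Of 16 listed genes 14 were measured and all 14 were higher in mutant, 11 of them past 2-fold, with a median relative log2 of 1.62 against 0 over all genes. The median was 1.49 without the deep cells and 1.56 with every cell weighted equally. Ly6c1, a surface antigen of mouse endothelium (chr15:75044018-75048830, minus strand), was at 34.3 CPM in control (30.3 to 38.8) and 333 in mutant (322 to 345), a relative log2 of 3.35. After thinning, 6.23% of control cells and 39.8% of mutant cells had a Ly6c1 UMI. Ly6e was at 332 and 1033 CPM (2.02), and Ly6a, also called Sca-1, at 17.1 and 115 (2.61).

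The classical antiviral genes followed the same direction at lower levels. Isg15, a ubiquitin-like modifier, was at 11.2 CPM in control (8.90 to 13.9) and 111 in mutant (105 to 118), a relative log2 of 2.93. Oasl2 was at 9.97 and 91.3, and Ifit1 at 0.269, which is 2 UMIs, and 18.1. Ifitm3, which blocks viral entry, was at 645 and 1309. Irf7 had a relative log2 of 1.53. In mesenchymal cells 8 of 9 measured genes of the list were higher, 4 past 2-fold, with a median of 0.87. In the other endothelial cells 14 of 14 were higher, with a median of 1.29. Against mesenchymal cells the median in general capillary cells was 0.55, and Ifitm3 (-0.40) and Ifitm1 (-1.48) lay on the other side. Reads of Ly6c1 and of the class I genes may be shared with near-identical family members.

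MHC class I genes, which present peptides to CD8 T cells, were higher in 10 of 11 measured members, 3 past 2-fold (H2-K1, H2-T23 and Psmb9), with a median of 0.92, or 0.31 after subtracting the mesenchymal difference. H2-Q7 was on the lower side at -0.18. H2-K1 was at 34.8 CPM in control and 77.2 in mutant, and B2m at 232 and 315. None of the 8 MHC class II genes reached 10 CPM in either library.

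Fatty acid uptake genes were split. Of 13 measured members 8 were higher and 5 lower, 4 higher past 2-fold, and the median was 0.24, or -0.26 against mesenchymal cells. The members past 2-fold were Cd36, Fabp4, Fabp5 and Lpl. Cd36 (chr5:17781690-17888801, minus strand) was at 77.2 CPM in control (71.0 to 83.8) and 657 in mutant (641 to 673), a relative log2 of 2.17, and 16.0% and 63.2% of thinned cells had a UMI. In mesenchymal cells Cd36 was at 3.11 and 6.77 CPM, and its relative log2 was 1.41 in other endothelial and 2.29 in epithelial cells. Fabp5 was at 111 and 217 (1.31), and Lpl, lipoprotein lipase, at 26.9 and 53.5 (1.03). Meox2 and Tcf15, transcription factors that drive endothelial fatty acid uptake in other tissues, were lower: 42.3 and 29.3 CPM for Meox2, 63.6 and 27.1 for Tcf15. Their relative log2 values of -0.77 and -0.59 did not reach 2-fold.

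Fabp4, another fatty acid binding protein (chr3:10204088-10208576, minus strand), was at 20.3 CPM in control and 165 in mutant, and it sat in few cells. In mutant 51 of 1142 cells (4.47%, 3.34 to 5.83%) had 5 or more UMIs and held 91.7% of its UMIs, up to 148 in a cell. In control 5 of 608 cells did (0.822%, 0.268 to 1.91%), with 88.1% of its UMIs. Its Fano factor, the variance over the mean of thinned counts, was 18.5 in mutant, against a median of 1.06 over 5920 genes. The limit of 5 UMIs was chosen after its values were seen, so the description of these cells carries no test.

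The 51 Fabp4 cells of the mutant library differed from the rest in several lipid genes but not in all. Against the 1015 mutant cells with no Fabp4 UMI, Fabp5 was at 852 CPM (776 to 934) and 144 (137 to 152), and 94.1% against 38.4% of cells had a UMI. Pparg, the nuclear receptor of fat storage, was at 98.4 (73.7 to 129) and 10.4 CPM. Thrsp, which promotes lipid synthesis, was at 98.4 and 11.4, Rbp7 at 65.0 and 4.03, and the vascular antigen Cd300lg at 61.3 and 6.75. Of the gate genes, which chose the cells, Gpihbp1 was at 1023 and 832 CPM, Aplnr at 201 and 155 and Plvap at 511 and 336. Cldn5, a tight junction gene of the endothelial gate, was at 815 and 1541. Cd36 was at 1179 and 621, Ly6c1 at 594 and 322, and Kit at 171 and 294. Lpl was close, at 55.7 and 53.6 CPM, with a UMI in 25.5% and 26.7% of cells. The genes ranked highest were chosen for their difference, and no lipid list was counted here.

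Markers of fat cells and leukocytes were near 0 in the Fabp4 cells: Adipoq and Plin1 had no UMI, which allows up to 6.85 CPM, and Ptprc had 1. Ccl21a, a lymphatic chemokine, led the ranking at 92.8 CPM but had UMIs in 1.96% of the cells, so it came from 1 cell. On the lower side stood division genes, with H1f5 at 96.6 against 560 CPM and Birc5 at 29.7 against 165. Haemoglobin had a lower sum, with Hba-a1 at 27.9 against 997 CPM and Hbb-bs at 139 against 2718. Hbb-bs had a UMI in more of the Fabp4 cells, 62.7% against 44.7%. Over 8842 genes, 0.837% were at least 2-fold higher and 2.32% lower. The median depth was 9662 UMIs in these cells and 8127 in those without Fabp4.

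The 12 genes of the general capillary list were higher in mutant in 10 cases, 4 past 2-fold, with a median of 0.66. Those past 2-fold were Tmem100, Cd36, Cxcl12 and Lpl. Adgrl4 (129 and 440 CPM) had a relative log2 of 0.93, and Kit one of -0.54. The 9 measured aerocyte genes were all higher as well, 3 past 2-fold, with a median of 0.85: Emp2 at 15.0 and 67.6 CPM, Prx at 24.0 and 66.8, and Igfbp7 at 84.6 and 255. The aerocyte list had a median of 1.30 in the other endothelial cells and 1.07 over 5 measured members in mesenchymal cells, and after subtracting the mesenchymal difference the general capillary median was 0.40.

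The endothelial framework was close between libraries on the relative scale. VEGF receptors had a median of 0.10, with Kdr at 529 CPM in control (512 to 546) and 559 in mutant (545 to 574). Without adjustment 4 of 5 VEGF receptors were higher, 2 past 2-fold (median 0.59), where 10% of all genes were called higher. On the relative scale, endothelial transcription factors were higher in 11 and lower in 9 of 20, none past 2-fold (median 0.10). Without adjustment 3 were past 2-fold higher and 2 lower. After subtracting the mesenchymal difference 4 of 20 lay past 2-fold on the higher side and 0 on the lower (median -0.11), against 3.36% and 1.96% of all genes. Of 12 junction genes none passed 2-fold, and of 8 caveola genes Cav2 did (114 and 194 CPM, 1.13). Flow-response genes were higher in 6 of 7 measured, 2 past 2-fold (Thbd and Heg1; median 0.79), with Klf2 at 519 and 679 CPM and Klf4 at 109 and 155. In mesenchymal cells 4 of 5 measured flow-response genes were higher, with a median of 1.04, and after subtracting the mesenchymal difference the general capillary median was 0.15.

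**Figure D3:**
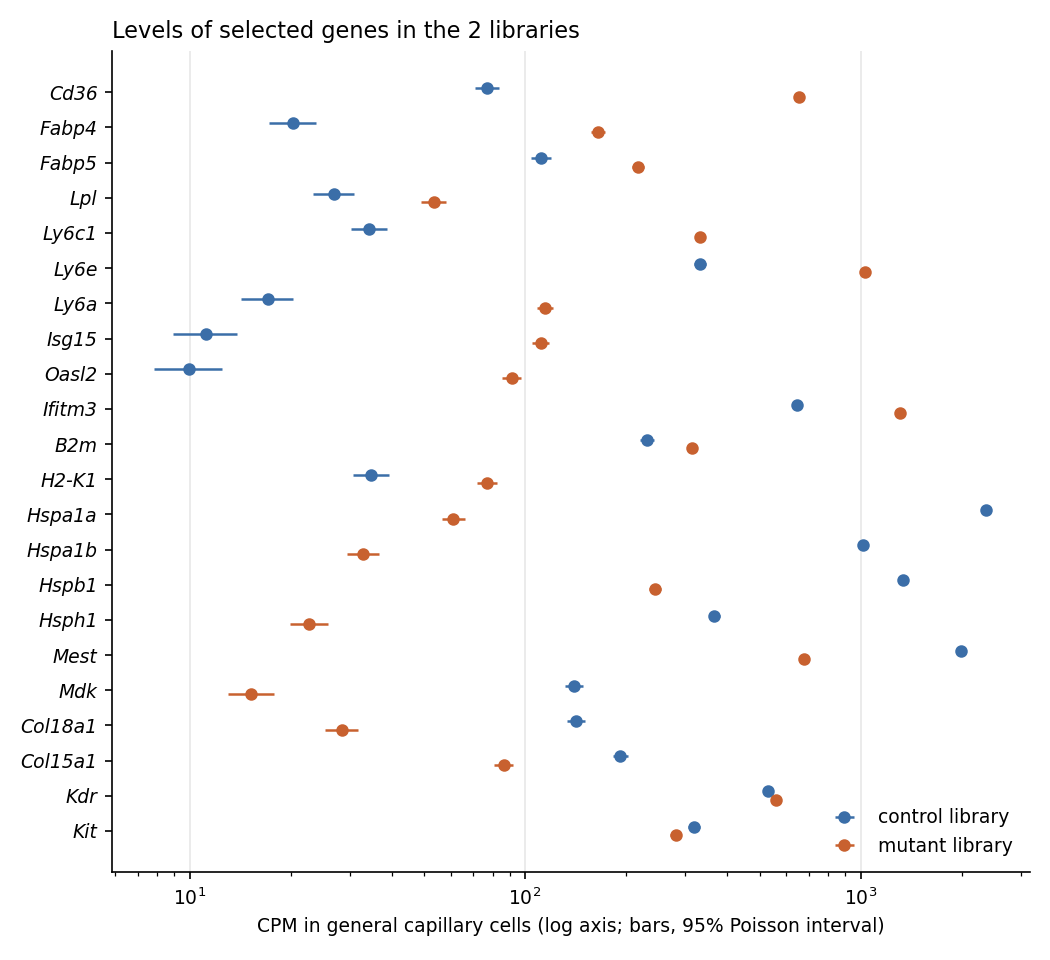
CPM of 22 genes in general capillary cells of the control (blue) and mutant (orange) library on a log axis, with 95% Poisson intervals. Cd36, Fabp4, Fabp5 and Lpl, the fatty acid uptake genes past 2-fold on the relative scale, lay higher in mutant (Cd36 657 against 77.2). The Ly6 genes shown did too. The heat shock genes shown (Hspa1a 61.2 against 2363), Col18a1 and Col15a1 lay lower, and Kdr was close (529 and 559). Without adjustment, 7 of 13 measured fatty acid uptake genes were higher and 6 lower, and 8 of 12 basement membrane genes were higher.

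On the lower side stood 2 collagens of the vessel wall that carry endostatin-type domains. Col18a1 (chr10:77052178-77166548, minus strand) was at 142 CPM in control (133 to 151) and 28.5 in mutant (25.3 to 31.9), a relative log2 of -2.75. Col15a1 (chr4:47208161-47313167, plus strand) was at 192 and 86.3 CPM, a relative log2 of -1.43. In mesenchymal cells both were higher in mutant without adjustment, Col18a1 at 36 and 79.2 CPM and Col15a1 at 5.21 and 24.9. Other endothelial and epithelial cells were on the same side as general capillary cells, with relative log2 values of -2.61 and -3.70 for Col18a1 and -1.87 and -1.95 for Col15a1. Against mesenchymal cells they were the 2 lowest genes by the naming rule, at -2.94 and -2.27. The main collagens of the basement membrane were close, with Col4a1 at 1750 and 2203 CPM (-0.44) and Col4a2 at 913 and 1214 (-0.36). The basement membrane list was lower in 9 of 12 on the relative scale, with only Col18a1 past 2-fold (median -0.24). Without adjustment 8 of 12 were higher, with a median of 0.32, so the direction of the list depended on the intron reference. After subtracting the mesenchymal difference the median was -0.37.

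Fetal growth genes were lower in part. Mest, an imprinted gene of fetal mesoderm and endothelium, was at 1998 CPM in control (1966 to 2030) and 679 in mutant (664 to 695), a relative log2 of -1.52. After thinning 95.6% and 52.8% of cells had a UMI. Mdk, midkine, was at 140 and 15.3 CPM (-2.16), with 974 and 348 in mesenchymal cells. Imprinted growth genes were lower in 8 of 11, 2 past 2-fold (Mest and Plagl1; median -0.51), while Zdbf2 was higher past 2-fold at 1.15. The imprinted median was -0.11, with 5 of 11 higher, after subtracting the mesenchymal difference, and -0.24 without cells holding division RNA. Cholesterol synthesis genes were lower in 11 of 11 measured, 3 past 2-fold (Fdps and Cyp51 among them; median -0.61, against -0.83 in mesenchymal cells), and 8 of 11 lay on the higher side, with a median of 0.26, after subtracting the mesenchymal difference.

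The heat shock list had the lowest median of the 38 lists. All 10 were lower in mutant, 8 past 2-fold, with a median of -1.83 (-1.70 without the deep cells). Hspa1a (chr17:34969190-34972156, minus strand), an inducible HSP70 with a near-identical copy in Hspa1b, was at 2363 CPM in control (2328 to 2398) and 61.2 in mutant (56.6 to 66.1), a relative log2 of -4.65. Hspa1b was at 1016 and 32.9, Hspb1 at 1338 and 244, and Hsph1 at 366 and 22.7. Mesenchymal cells showed the same direction in 9 of 10, with a median of -1.05, and after subtracting their difference the general capillary median was -0.50. Immediate early genes had a median of 0.03 in general capillary and 1.45 in mesenchymal cells. Fos was at 458 and 351 CPM in general capillary cells, and at 920 and 2156 in mesenchymal cells. With 1 library per group, handling of the tissue and host genotype cannot be told apart.

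**Figure D4:**
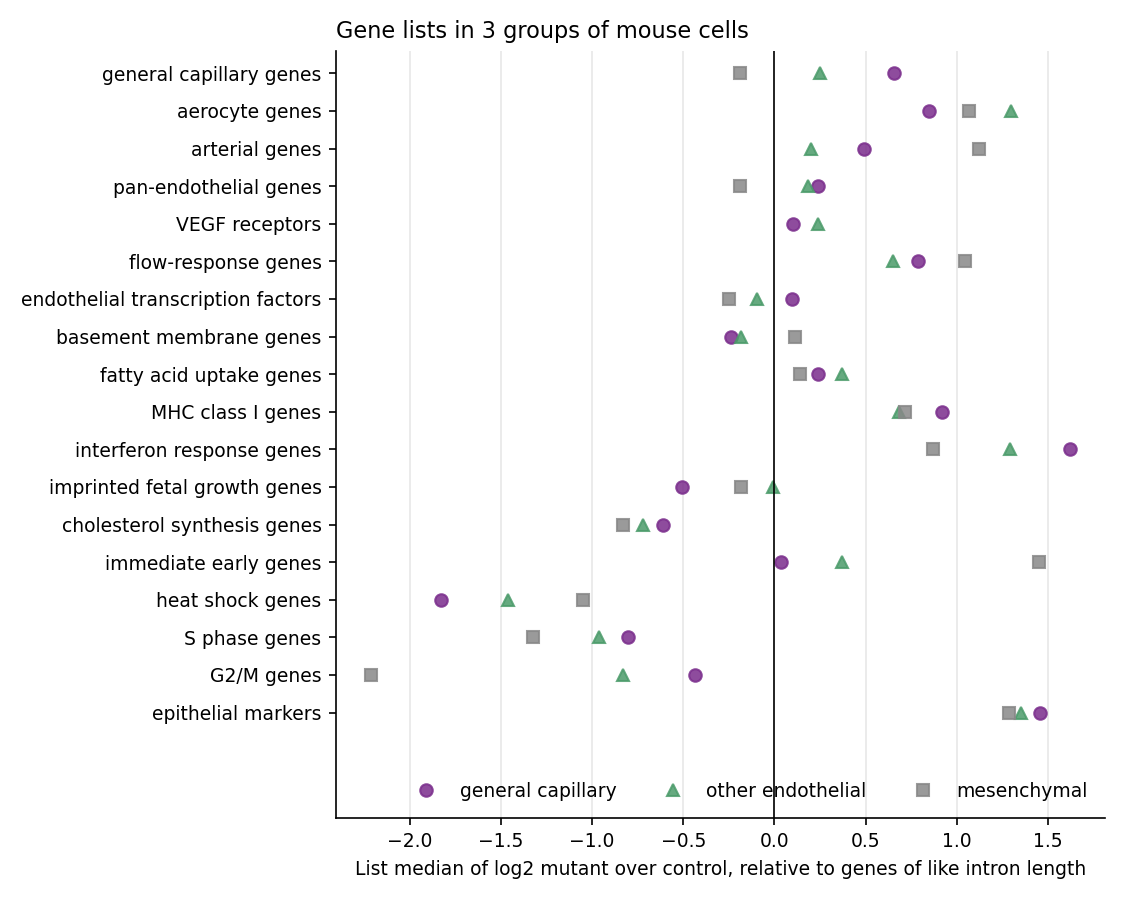
Median relative log2 (mutant over control) of 18 gene lists in general capillary (circles), other endothelial (triangles) and mesenchymal cells (squares). The interferon list was at 1.62, 1.29 and 0.87, the heat shock list at -1.83, -1.46 and -1.05, and the G2/M list at -0.43, -0.83 and -2.21; a list with fewer than 3 measured members has no symbol.

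Division RNA was lower in mutant in all 4 groups of mouse cells compared. Of these groups, general capillary cells had the highest shares in both libraries after thinning to 2000 UMIs. Thinning left out 14 control and 13 mutant general capillary cells, and 146 of 675 control and 60 of 917 mutant other endothelial cells. A UMI of any of 14 G2/M genes was found in 75.1% of general capillary cells in control (446 of 594, 71.4 to 78.5%) and 39.7% in mutant (448 of 1129, 36.8 to 42.6%). Other endothelial cells went from 70.7% to 30.2%, mesenchymal cells from 50.2% to 12.9% and epithelial cells from 68.3% to 8.04%. The control interval of other endothelial cells, 66.6 to 74.5%, overlapped that of general capillary cells. Without thinning the general capillary shares were 90.5% and 61.8%. Without the deep cells they were 73.6% and 38.9%.

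Mki67 (chr7:135689784-135716361, minus strand) had a UMI in 38.2% and 18.8% of thinned general capillary cells, in 21.5% and 3.66% of mesenchymal cells and in 25.4% and 1.47% of epithelial cells. Top2a, the topoisomerase of dividing cells, was in 40.6% and 22.5% of general capillary and 21.9% and 2.75% of mesenchymal cells. In CPM, Top2a was at 482 and 417 in general capillary cells and at 339 and 47.0 in mesenchymal cells.

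On the relative scale all 14 G2/M genes were lower in mutant general capillary cells and none passed 2-fold (median -0.43), while all 14 passed it in mesenchymal (median -2.21) and in epithelial cells (median -2.77). S phase genes were lower in 12 of 12, 4 past 2-fold (Mcm3, Mcm5, Mcm6 and Ung; median -0.80, against -1.33 in mesenchymal cells). After subtracting the mesenchymal difference all 14 G2/M genes lay at least 2-fold on the higher side, where 3.36% of all genes did. Without adjustment all 14 were lower in mutant in both groups, with a median of -0.73 in general capillary and -2.48 in mesenchymal cells. The decrease was thus smaller in general capillary cells. Cenpf, H1f5 and Top2a were among the 10 highest genes of that comparison, with values of 2.64, 2.96 and 2.41. Id1, a target of BMP signalling, was at 174 and 163 CPM in general capillary cells and 375 and 34.2 in mesenchymal cells.

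**Figure D5:**
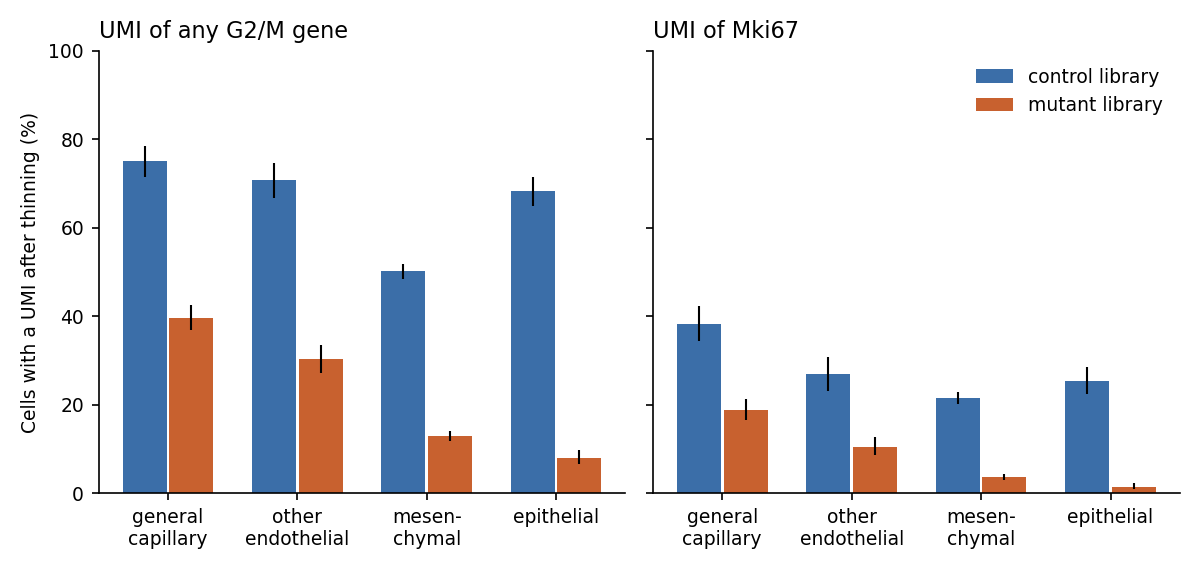
Share of cells with a UMI of any of 14 G2/M genes (left) and of Mki67 (right) after thinning to 2000 UMIs, in 4 groups of mouse cells of the control (blue) and mutant (orange) library, with 95% Clopper-Pearson bars. The mutant shares of general capillary cells, 39.7% and 18.8%, were the highest of the 4 groups.

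Cells with and without division RNA were compared within each library. In mutant the 431 cells with 2 or more UMIs of the 26 G2/M and S phase genes after thinning had Gpihbp1, a gate gene, at 791 CPM, against 876 in the other 698. Kit was at 273 and 288 CPM, Tek at 253 and 258, and Cd36 at 499 and 776. Fabp4 (64.2 against 241 CPM), Cxcl12 (18.9 against 75) and Tmem100 (36 against 78.9) were lower in the cells with division RNA. Fabp4 and Cxcl12 were lower in control too, at 13.0 against 72.1 and 11.7 against 75.3 CPM. The control Fabp4 values rest on few cells, as 5 of 608 held 88.1% of its UMIs, up to 57 in a cell. The cells with division RNA were deeper, with medians of 9669 and 7668 UMIs in mutant. Without them the interferon list had a median of 1.75 and the heat shock list -1.89.

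Several of the highest genes in mutant are long. Galnt2l (chr8:119910841-124345722, plus strand), whose annotated span overlaps many genes, had no UMI in control, which allows 0.404 CPM, and 444 CPM in mutant, at least 1099-fold higher. It was at 0 and 467 CPM in mesenchymal cells. Gphn (16.6 and 647 CPM), Pde4d (30.0 and 879), Arl15 (28.3 and 764) and Airn (39.7 and 583) were higher in mesenchymal cells as well, by 4.13, 2.87, 2.61 and 2.89 log2 units without adjustment. Hdac9, a histone deacetylase (chr12:34047580-34917095, minus strand), was at 21.1 and 522 CPM in general capillary cells and at 0.632 and 7.27 in mesenchymal cells, and it led the ranking against mesenchymal cells at 3.39. Its mesenchymal levels were under the 10 CPM set for a measured gene, so the value of 3.39 depends on the 10 CPM added. In other endothelial cells Hdac9 was at 11.8 and 562.

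Ager and Sftpc, genes of alveolar epithelium, were also higher in mutant. Ager was at 8.76 and 106 CPM in general capillary cells and at 10.6 and 87.7 in mesenchymal cells. Sftpc was at 212 and 614 CPM in general capillary cells and at 247 and 691 in mesenchymal cells. After thinning, 44.4% of control and 45.6% of mutant general capillary cells had a Sftpc UMI. All 7 measured epithelial markers were higher in general capillary cells, with a median of 1.46, against 1.29 in mesenchymal cells.

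Variation from cell to cell was strongest for a few RNAs. Leaving out haemoglobin, the 10 highest Fano factors in control were those of Malat1, Mfap4, Hspb1, Hspa1a, Col1a1, Dlk1, Hist1h2ap, H1f5, Acta2 and Cxcl12, against a median of 1.04 over 5921 genes. In mutant they were those of Sftpc (40.5), Fabp4, Lyz2, Malat1, Mfap4, H1f5, Apoe, Eln, Mgp and Ager. Mfap4, Col1a1, Eln and Mgp are genes of mesenchymal cells, and Sftpc and Ager of epithelium. Cdh5 had factors of 1.46 in control and 1.33 in mutant, and Kit 1.52 and 1.30. The haemoglobin gene Hba-a1 had factors of 68.2 and 119.

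The same gate on rat genes took 10 of 725 rat cells in control and 0 of 79 in mutant, which allows up to 3.8%. The rat gene set used here held no feature named Pecam1 or Car4, so the rat gate differed from the mouse gate, and no mouse-rat comparison was made.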

How the data were processed

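A pair of 10x 3' v3 libraries was used, 1 per group. The deposited values are raw UMI counts per gene and cell barcode, made by the authors with Cell Ranger 6.0.1 (control) and 7.0.1 (mutant), per the file headers. Builds mm10 and rn6 and Seurat 4.3 are named in the submitters' processing notes. The control file held 11129 barcodes with 123047433 UMIs and the mutant file 10918 with 103627303.

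Barcodes with at least 500 genes, at most 20% mitochondrial UMIs and at least 90% mouse UMIs were kept. UMIs were summed per library and cell group, scaled to CPM and compared as log2 with 10 CPM added. Genes with 10 CPM or more in either group were measured. Intron lengths came from GENCODE vM21 for 99.5% of mouse gene symbols. Python 3.11.15, NumPy 2.4.6, SciPy 1.17.1, pandas 2.3.3 and Scanpy 1.11.5 were used, and the computation was tested on simulated data. Doublets were scored with Scrublet and kept. Intervals are exact (Poisson or Clopper-Pearson) at 95% and cover counting error only.

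Named genes were taken from the 10 farthest on each side of each comparison, above a floor of 50 CPM between cell groups and 100 CPM between libraries, in 1 direction in both libraries where both were used. The ranking against the aerocyte gate used both libraries, so the 9 control cells of that gate entered it. The 10 highest Fano factors per library were also named, as were gate genes and list examples. Rankings omit gate genes, haemoglobin, mitochondrial, ribosomal protein and sex-linked genes, Cmss1, and Gm and Rik models. The members and the 38 gene lists were chosen with earlier results of these data known. Alternatives covered the limits of the gates, thinning, doublet removal, the added CPM, scaling and the intron reference.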

Additional observations from a re-analysis of the deposited data

Results flagged for a closer look

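Ryr2, the ryanodine receptor of cardiac muscle (mm10 chr13:11553102-12106945, minus strand), was higher in mutant in both cell groups compared, at 16.3 and 192 CPM in general capillary cells and 1.40 and 4.61 CPM in mesenchymal cells. After subtracting the median of its intron class, the log2 difference was 1.61 in general capillary, 2.33 in other endothelial and -1.03 in mesenchymal cells. It is listed here because the adjusted values of general capillary and mesenchymal cells have opposite signs. The mesenchymal level was under the 10 CPM set for a measured gene, so its negative value comes from the 10 CPM added and the class median subtracted. The difference between the cell groups was not tested.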

How the results depend on the processing

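No paired analysis was possible because each group had 1 library, and for the same reason no replicate could be left out. The share of general capillary cells among endothelial cells (control and mutant) was 13.4% and 21.6% with the gate applied after thinning, 35.7% and 47.8% with a gate sum of at least 6, and 57.3% and 57.8% with an endothelial sum of at least 8. The last of these limits left nearly no difference between the libraries. Against other endothelial cells, the control count of higher genes (0) was 1 with 95% mouse UMIs required, 2 with the thinned gate, 1 with the endothelial sum of 8, 1 without cells of high doublet score, 4 with 1 CPM added and 1 with TMM scaling. The 38 lower genes were 77 with 1 CPM added, 8 with 50 CPM added and 21 among genes of at least 50 CPM. In mutant, the 8 higher genes were 2 with the thinned gate, 5 with a gate sum of 6, 3 without cells of high doublet score, 30 with 1 CPM added and 4 with 50, and the 238 lower genes were 466, 57 and, among genes of at least 50 CPM, 127. Against the mutant aerocyte gate, the 292 higher genes were 586 with 1 CPM added, 51 with 50 and 168 among genes of at least 50 CPM, and the 534 lower genes 872, 180 and 321. Against the 9 control cells of that gate, the 1255 higher genes were 3389 with the thinned gate, 3186 with the endothelial sum of 8, 262 with 50 CPM added and 492 among genes of at least 50 CPM, and the 1164 lower genes were 1972 with the thinned gate, 1765 with 1 CPM added, 278 with 50 and 505 among genes of at least 50 CPM.

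Between libraries, the 438 higher genes were 790 with 1 CPM added, 133 with 50, 233 among genes of at least 50 CPM, 953 with no intron reference and 141 among genes with at most 10 kb of intron. The 196 lower genes were 443, 42 and 123 under the first 3 of these and 295 with no intron reference. The 15 lists with a median of at least 0.5 either way became 8 with 50 CPM added. Subtracting the mesenchymal difference turned Galnt2l to -0.071 and Hist1h2ap to 2.15. The G2/M share in control and mutant was 90.5% and 61.8% unthinned, 64.3% and 31.3% at 1000 UMIs, and 56.3% and 25.9% at 1000 UMIs of genes with at most 10 kb of intron. In mutant it was 36.2% among cells with 2 or more UMIs of Gpihbp1. The last 2 of these settings were chosen after seeing the data. The causes were not tested. Of the other recomputed values, 111 main values and 734 single genes or lists moved by less than their limit. Another 521 single genes or lists moved by more, and some of them changed sign. The G2/M list median ranged from -0.76 to 1.82 and the S phase median from -1.10 to 0.60. The cholesterol synthesis median ranged from -1.01 to 0.26, and Fos kept its sign in 10 of 17 settings. Depth limits genes under 0.404 CPM in control and 0.286 in mutant, the level of 3 UMIs.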
